A study of Homo sapiens with 4 samples.

Results

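The genes described here are 8 chemokines that lie outside the neutrophil-attracting CXC group: CCL2, CCL5, CCL20, CCL26, CXCL10, CXCL11, CXCL16 and CX3CL1. They were chosen by symbol, and each matched 1 of the 20263 Ensembl genes in the deposited count table. Transcripts were counted by RNA sequencing of mRNA libraries from the human cell line MDA-MB-231, which derives from a breast cancer of the triple-negative type and was grown in DMEM with fetal bovine serum. One group was treated for 24 h with RB-BC, named in the series title as derived from ribociclib, a drug that inhibits the kinases CDK4 and CDK6, and the other received the vehicle DMSO. Each group held 2 libraries, named here RB-BC 1, RB-BC 2, DMSO 1 and DMSO 2. The treatment protocol calls the compound Rib_CA, and the sources used here give neither a dose nor a statement that both names mean 1 compound. Nothing says that libraries of a group came from separate cultures, so p-values rest on the spread among these libraries alone, and that spread may be technical.

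Chemokines are small proteins that steer leukocytes along concentration gradients through G-protein-coupled receptors. CC chemokines act mainly on monocytes, dendritic cells, lymphocytes and eosinophils. CXCL10 and CXCL11 are interferon-inducible ligands of CXCR3, a receptor of activated T cells and NK cells. CXCL16 and CX3CL1 are unusual in being made as transmembrane proteins with a chemokine domain on a mucin-like stalk, from which metalloproteases release a soluble form. Transcription of many chemokine genes in epithelial and tumour cells is driven by NF-kB, and that of the CXCR3 ligands also by interferon-activated STAT and IRF factors.

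Library totals ran from 34774542 to 42786422 counts. Mitochondrially encoded genes took 10.1% and 10.3% of the counts in RB-BC 1 and RB-BC 2, against 8.68% in DMSO 1 and 21.7% in DMSO 2, so that DMSO 2 stood apart. Of 6 markers of the line, S100A4 was low, at 7.93 ± 1.05 CPM in RB-BC and 5.45 ± 0.269 CPM in DMSO (SD, n = 2 each). The others had means above 200 CPM in both groups, among them VIM with 5345 ± 170 CPM in RB-BC and 3725 ± 597 CPM in DMSO. CAV1 was called lower in RB-BC (268 ± 5.87 CPM, against 573 ± 1.70 CPM in DMSO, edgeR adjusted p = 0.0113), a call lost with either RB-BC library left out. The oestrogen receptor gene ESR1 had 6 and 12 counts in RB-BC and 23 and 7 in DMSO. ESR1 belongs to a list of 5 luminal and receptor markers, in which edgeR called 0 genes, against 8.58% higher and 7.53% lower over all genes. Those markers summed to 72.6 and 71.8 CPM in RB-BC, against 91.3 and 96.8 CPM in DMSO. ERBB2 was the highest, at 56.8 ± 0.724 CPM in RB-BC and 67.8 ± 5.23 CPM in DMSO. GATA3 and EPCAM had means of 8.30 and 5.75 CPM in RB-BC, against 15.2 and 9.05 CPM in DMSO. Of 7 leukocyte markers, CD3E and MS4A1 had no count in any library. The list summed to 1.96 and 2.62 CPM in RB-BC, against 2.02 and 1.49 CPM in DMSO, and edgeR called 0 of its members. Those tested had means under 50 counts, where 3.93% of tested genes were called higher, so 0 calls say little. Their log2 fold changes of RB-BC over DMSO were 1.14 ± 0.41 for PTPRC, −0.03 ± 0.44 for CD14 and −0.65 ± 0.52 for CSF1R (SE). The part of these leukocyte markers in the chemokine values was not tested.

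CCL20, CXCL10 and CX3CL1 were higher in RB-BC cells, where DMSO cells had between 0 and 4 counts per library. CCL5, CXCL11, CCL26 and CXCL16 were counted in every library and did not pass the test, the first pair with widely spaced DMSO libraries. CCL2, the monocyte chemoattractant that binds CCR2, had 0 counts in all 4 libraries, which allows up to 0.0692 TMM-scaled CPM in an RB-BC library and 0.0895 TMM-scaled CPM in a DMSO library (a floor of 3 counts).

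Levels are TMM-scaled CPM, that is counts normalised to library size, and differences are log2 fold changes of RB-BC over DMSO from edgeR's quasi-likelihood test, with Benjamini-Hochberg adjustment over 13744 genes and a threshold of 0.05. Of the 7 members that passed the low-count filter, 3 were called higher and 0 lower. For all genes tested, 8.58% were called higher and 7.53% lower. The 3 called members passed the filter only through the RB-BC libraries. Among the 174 tested genes of that kind, 23.6% were called higher. Among the 15 tested genes with no count in DMSO, which include CCL20 and CXCL10, 100% were called, so a call on such a gene follows from its having been tested. Of tested genes with a mean under 50 counts, 3.93% were called higher. The groups did not overlap, with RB-BC above DMSO, for 6 of the 8 members and for 33.1% of all tested genes. In bulk RNA, more cells with a transcript and more transcript per cell cannot be told apart.

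**Figure D1:**
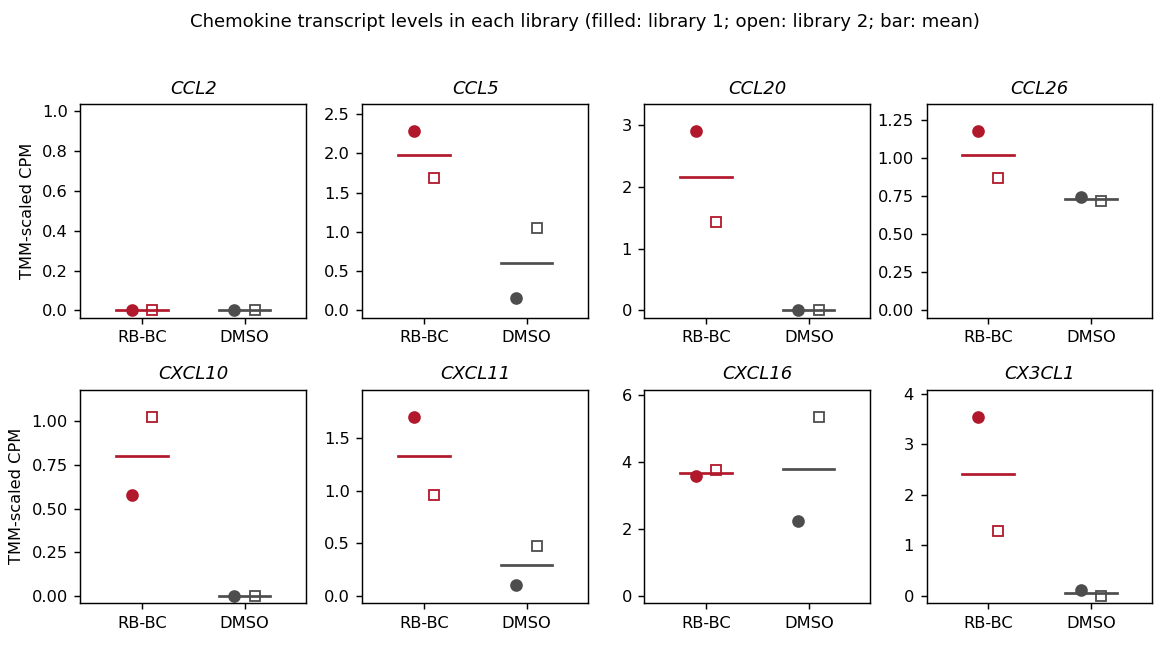
TMM-scaled CPM of each of the 8 chemokine genes in the RB-BC and DMSO libraries (filled circle, library 1; open square, library 2; bar, mean of n = 2; each panel has its own axis, which includes 0). CCL20 and CXCL10 were at 0 in DMSO, CCL2 was at 0 throughout, and the DMSO libraries of CXCL16 lay on either side of its RB-BC libraries.

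CCL20 attracts CCR6-bearing dendritic cells, B cells and Th17 cells. The gene, ENSG00000115009, had 126 and 63 counts in RB-BC 1 and RB-BC 2, against 0 and 0 in DMSO. Every RB-BC library was therefore above both DMSO libraries, and the RB-BC pair itself differed 2.02-fold. The level was 2.17 ± 1.04 CPM in RB-BC and 0 CPM in DMSO (SD, n = 2). Against a floor of 3 counts per DMSO library it was at least 25.7-fold higher in RB-BC (edgeR adjusted p = 0.0119). Leaving out RB-BC 1 lowered that bound to 17.0-fold (edgeR adjusted p = 0.0393), and leaving out RB-BC 2 raised it to 34.4-fold. Its call was kept with each library left out, but with all 4 libraries every tested gene with no count in DMSO was called.

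CCL5, also known as RANTES, recruits T cells and monocytes through CC receptors that include CCR1 and CCR3. The gene, ENSG00000271503, had 99 and 74 counts in RB-BC, against 6 in DMSO 1 and 35 in DMSO 2. Both RB-BC libraries were above both DMSO libraries, but the DMSO pair differed 6.55-fold after scaling. The level was 1.99 ± 0.420 CPM in RB-BC and 0.602 ± 0.626 CPM in DMSO (SD, n = 2). The log2 fold change of 1.74 ± 0.74 (SE) did not pass (edgeR adjusted p = 0.154), and its 95% interval ran from −0.07 to 3.55. Without DMSO 2, in which mitochondrial genes took the most counts, it was 3.61 and passed (edgeR adjusted p = 0.0131). Without DMSO 1 it was 0.93 (edgeR adjusted p = 0.135).

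CCL26, or eotaxin-3, is an eosinophil attractant that binds CCR3 and is induced by IL-4 and IL-13. The gene, ENSG00000006606, had 51 and 38 counts in RB-BC, against 28 and 24 in DMSO. The RB-BC libraries were again the higher ones, by a small margin. The level was 1.02 ± 0.218 CPM in RB-BC and 0.730 ± 0.0195 CPM in DMSO (SD, n = 2). The log2 fold change was 0.48 ± 0.38 (edgeR adjusted p = 0.408, 95% interval −0.46 to 1.42). With each library left out in turn it lay between 0.25 and 0.69.

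CXCL10, or IP-10, had 25 and 45 counts in RB-BC, against 0 and 0 in DMSO (ENSG00000169245). It was the member with the fewest counts among those called, at 0.801 ± 0.318 CPM in RB-BC and 0 CPM in DMSO (SD, n = 2). The gene was at least 9.47-fold higher in RB-BC against the floor of 3 counts per DMSO library (edgeR adjusted p = 0.0192). With RB-BC 1 left out it was at least 12.2-fold higher and no longer called (edgeR adjusted p = 0.0605). The same was true with RB-BC 2 left out, at 6.82-fold (edgeR adjusted p = 0.0702). It was kept without either DMSO library.

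CXCL11, or I-TAC, is the neighbouring gene of CXCL10 in the RefSeq annotation (GRCh38.p14, chromosome 4) and shares its receptor. The gene, ENSG00000169248, had 74 and 42 counts in RB-BC, against 4 in DMSO 1 and 16 in DMSO 2. Both RB-BC libraries were above both DMSO libraries, at 1.33 ± 0.529 CPM in RB-BC and 0.292 ± 0.262 CPM in DMSO (SD, n = 2). The log2 fold change of 2.20 ± 0.70 missed the threshold (edgeR adjusted p = 0.0820), with a 95% interval from 0.49 to 3.91. As for CCL5, the outcome turned on the DMSO library used. With DMSO 2 left out the log2 fold change of CXCL11 was 3.61 (edgeR adjusted p = 0.0253). With DMSO 1 left out it was 1.48 (edgeR adjusted p = 0.119). The third CXCR3 ligand of that cluster, CXCL9, had 0 counts in every library.

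CX3CL1, or fractalkine, binds CX3CR1 on monocytes, NK cells and cytotoxic T cells, and its membrane form acts as an adhesion molecule. The gene, ENSG00000006210, had 154 counts in RB-BC 1 and 56 in RB-BC 2, against 4 in DMSO 1 and 0 in DMSO 2. Both RB-BC libraries were far above DMSO, and they differed 2.78-fold from each other, the widest RB-BC gap among the members. The level was 2.41 ± 1.61 CPM in RB-BC and 0.0531 ± 0.0751 CPM in DMSO (SD, n = 2). The log2 fold change was 5.36 ± 0.97 (edgeR adjusted p = 0.0212), a value that rests on 4 counts in DMSO, with a 95% interval from 2.99 to 7.73. Without RB-BC 1 it was 4.45 and did not pass (edgeR adjusted p = 0.0993). Without DMSO 2 it was 4.47 (edgeR adjusted p = 0.0310), and with RB-BC 2 left out it was 5.92. Since all 4 DMSO counts came from DMSO 1, leaving that library out gave a bound of at least 27.0-fold.

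CXCL16, the ligand of CXCR6 and a scavenger receptor for oxidised lipoprotein, had 155 and 164 counts in RB-BC, against 84 in DMSO 1 and 179 in DMSO 2 (ENSG00000161921). The RB-BC libraries were close together and lay between the DMSO libraries, so the groups overlapped. The level was 3.66 ± 0.119 CPM in RB-BC and 3.79 ± 2.20 CPM in DMSO (SD, n = 2). The log2 fold change was −0.05 ± 0.42 (edgeR adjusted p = 0.949), and its 95% interval from −1.08 to 0.98 allows up to about a doubling or halving. Leaving out DMSO 2 gave 0.71 (edgeR adjusted p = 0.105). Leaving out DMSO 1 gave −0.54 (edgeR adjusted p = 0.143). In GENCODE 29, 85 exonic bases of CXCL16 (3.04%) overlap MED11 on the opposite strand, and the strand setting of the counting is not given, so reads there cannot be assigned.

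**Figure D2:**
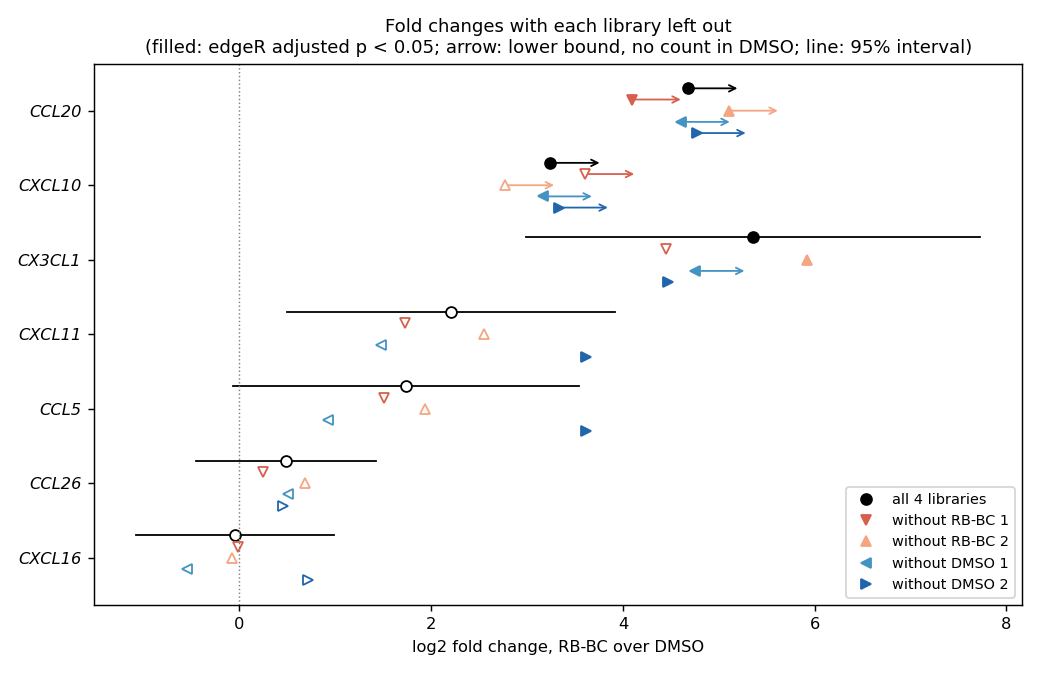
Log2 fold change of RB-BC over DMSO for the 7 tested chemokine genes with all 4 libraries and with each library left out (filled, edgeR adjusted p under 0.05; line, 95% interval; arrow, lower bound against 3 counts per DMSO library). CCL5 and CXCL11 passed without DMSO 2 (3.61 each), CXCL10 was not called with either RB-BC library left out, and CXCL16 lay on both sides of 0.

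Promoter sequence is shown because NF-kB and interferon-activated factors act at such sites. RefSeq promoter entries (GRCh38.p14) matched 4 of the 8 members, CCL20, CCL26, CXCL10 and CXCL11. Each line gives the 250 bases before the annotated start, 5′ to 3′ on the gene's strand. Capitals mark matches, on either strand, to an NF-kB-type motif GGGNNNTTCC, an interferon response element GAAANNGAAA, a gamma-activated motif TTCNNNGAA, a STAT6-type motif TTCNNNNGAA, an AP-1 motif TGANTCA and a C/EBP-type motif TTGCNNAA. No marked matches overlapped. A TATA motif, TATAAA, was also searched and is not capitalised. The windows are chr2:227813592-227813841 on the plus strand for CCL20, and, on the minus strand, chr4:76023498-76023747 for CXCL10, chr4:76036071-76036320 for CXCL11 and chr7:75789747-75789996 for CCL26.
CCL20: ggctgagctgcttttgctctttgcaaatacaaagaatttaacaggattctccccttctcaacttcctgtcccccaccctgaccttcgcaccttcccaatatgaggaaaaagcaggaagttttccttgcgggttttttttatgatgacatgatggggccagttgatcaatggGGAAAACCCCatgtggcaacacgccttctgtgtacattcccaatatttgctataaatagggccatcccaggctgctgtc
CXCL10: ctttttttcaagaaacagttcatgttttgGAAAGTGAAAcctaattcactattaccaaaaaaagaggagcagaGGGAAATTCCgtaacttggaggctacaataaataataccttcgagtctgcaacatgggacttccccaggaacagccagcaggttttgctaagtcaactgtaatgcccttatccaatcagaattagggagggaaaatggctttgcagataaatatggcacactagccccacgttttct
CXCL11: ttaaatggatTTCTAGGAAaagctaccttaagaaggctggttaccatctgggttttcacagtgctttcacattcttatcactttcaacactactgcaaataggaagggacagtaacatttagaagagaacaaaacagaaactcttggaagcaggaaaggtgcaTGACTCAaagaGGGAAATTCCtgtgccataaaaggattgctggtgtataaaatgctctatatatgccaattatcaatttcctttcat
CCL26: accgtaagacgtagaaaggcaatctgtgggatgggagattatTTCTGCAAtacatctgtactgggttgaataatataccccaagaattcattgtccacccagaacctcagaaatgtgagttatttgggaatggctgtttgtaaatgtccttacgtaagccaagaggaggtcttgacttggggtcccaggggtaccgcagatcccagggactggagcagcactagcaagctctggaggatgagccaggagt

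CCL20 held 1 NF-kB-type match, GGAAAACCCC, which is the motif on the reverse strand and lies 79 to 70 bases before the start. CXCL10 and CXCL11 held the same 10 letters, GGGAAATTCC, at 177 to 168 and at 76 to 67 bases before their starts. The motif was present in 5.61% of 27305 RefSeq promoter windows of the same length. CXCL10 also held an interferon response element, GAAAGTGAAA, 221 to 212 bases before the start, a motif found in 3.07% of windows. CXCL11 held instead a gamma-activated match, TTCTAGGAA (6.78% of windows), and an AP-1 match, TGACTCA (6.60% of windows), the second just upstream of its NF-kB-type match. The TATA motif, found in 11.1% of windows, was in CCL20 at 29 to 24 and in CXCL11 at 42 to 37 bases before the start. CCL26 held a C/EBP-type match alone (9.13% of windows), and the STAT6-type motif, found in 5.35% of windows, was in none of the 4. These matches describe letters in the windows and are not evidence that a factor was bound.

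Scaled to exon length, the 7 members with counts stood in RB-BC below CXCL8, CXCL1, CXCL2, CXCL3 and CCL28 and above the remaining chemokines. Lengths were merged GENCODE 29 exons, which can exceed the transcript in use. In RB-BC the levels, in CPM per kb, were 1.45 ± 0.309 for CCL26, 1.36 ± 0.651 for CCL20, 1.31 ± 0.278 for CCL5, 1.31 ± 0.0426 for CXCL16, 0.698 ± 0.277 for CXCL11, 0.681 ± 0.271 for CXCL10 and 0.403 ± 0.269 for CX3CL1 (SD, n = 2). The libraries of neighbours in that order overlapped, except those of CXCL16 and CXCL11. In DMSO the order began with CXCL16 at 1.35 ± 0.787 and CCL26 at 1.03 ± 0.0276 CPM per kb, followed by CCL5 at 0.398 ± 0.414 and CXCL11 at 0.153 ± 0.138. CX3CL1 was at 0.00888 ± 0.0126 CPM per kb in DMSO, and CCL20 and CXCL10 were at 0. CXCL16 and CCL26 thus led the members in DMSO, and in RB-BC CCL20 and CCL5 stood level with them.

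The neutrophil-attracting CXC chemokines were on another scale. CXCL8 reached 185 ± 76.2 CPM per kb in RB-BC, against 4.19 ± 2.00 CPM per kb in DMSO, and CXCL1, CXCL2 and CXCL3 reached 169, 107 and 62.1 CPM per kb in RB-BC. All 4 tested genes of that list of 8 were called higher, against 8.58% higher and 7.53% lower over all genes. Their log2 fold changes ran from 5.47 to 6.47. CXCL1, CXCL2 and CXCL3 are near-identical paralogs, so the split of reads among them is uncertain. Summed over the 8 CC and interferon-type genes, the length-scaled level was 8.25 and 6.17 CPM per kb in RB-BC, against 2.03 and 3.87 CPM per kb in DMSO. Summed over the neutrophil-attracting list it was 663 and 383 CPM per kb in RB-BC, against 5.70 and 12.0 CPM per kb in DMSO. The CC and interferon-type genes therefore made up 1.22% and 1.57% of the length-scaled signal of all 43 chemokine genes in RB-BC, against 20.0% and 18.1% in DMSO. Their summed level was higher in both RB-BC libraries while their share of chemokine transcripts was smaller.

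**Figure D3:**
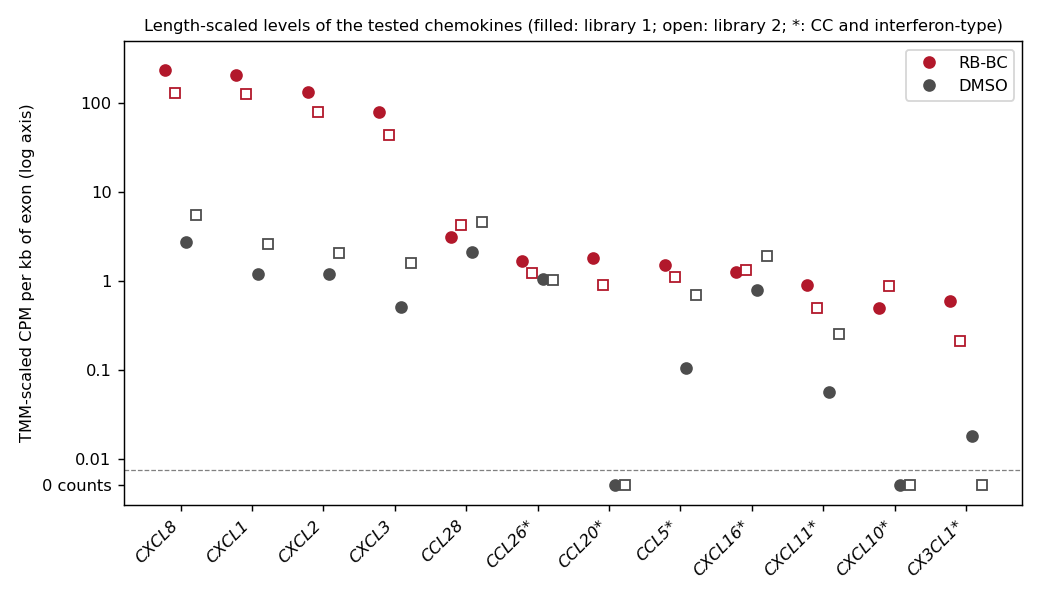
Length-scaled levels (TMM-scaled CPM per kb of merged exon, log axis, zero counts drawn below the dashed line) of the 12 tested chemokine genes in RB-BC (red) and DMSO (grey), by library; asterisks mark the CC and interferon-type genes. The 4 neutrophil-attracting genes had RB-BC means from 62.1 to 185 CPM per kb, and the CC and interferon-type genes had RB-BC means from 0.403 to 1.45 CPM per kb.

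Replicate libraries of a group did not move alike across the members. DMSO 2 was above DMSO 1 for CCL5 (6.55-fold), CXCL11 (4.49-fold) and CXCL16 (2.39-fold), and close to it for CCL26 (0.963-fold). For CX3CL1 it was the lower library, with 0 counts against 4 in DMSO 1. DMSO 2 was also the higher library for CXCL1 (2.17-fold) and CXCL8 (2.02-fold). Over all tested genes the median of that log2 ratio was 0.0012. TMM scaling sets such a median near 0, so it does not show how unusual these ratios are. RB-BC 1 was above RB-BC 2 for CX3CL1 (2.78-fold), CCL20 (2.02-fold), CXCL11 (1.78-fold), CCL26 (1.36-fold) and CCL5 (1.35-fold). CXCL16 was nearly equal in both (0.955-fold), and CXCL10 went the other way (0.561-fold), at 25 and 45 counts. Whether the mitochondrial share of DMSO 2 had a part in these differences was not tested.

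By profile over the 4 libraries, the 5 tested genes nearest to the mean of the 7 tested members were TNFRSF9, CDC42EP5, CH25H, ISG20 and PTPRH. Likeness was the Euclidean distance between log2 CPM profiles centred on DMSO, and it ran from 0.0841 for TNFRSF9 to 0.273 for PTPRH. TNFRSF9 encodes the costimulatory receptor 4-1BB, CH25H a cholesterol 25-hydroxylase, and ISG20 an interferon-stimulated exonuclease. Their log2 fold changes lay between 2.66 and 2.82, and all 5 were called higher. Both follow largely from their selection by that distance and are no separate result. TNFRSF9 had 198 and 135 counts in RB-BC and 16 and 22 in DMSO. Without RB-BC 1, TNFRSF9 (2.51) and CDC42EP5 (2.45) did not pass (edgeR adjusted p = 0.0803 and 0.0861). A profile of 4 libraries in 2 groups separates few patterns.

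Receptors for these ligands were barely transcribed. Of 22 chemokine receptor genes, 7 had no count in any library, 6 passed the filter, and the highest count of any receptor in any library was 59. Among the receptors of the members, CX3CR1 had 0 counts throughout, CXCR3 had 0 and 2 counts in RB-BC and 2 and 0 in DMSO, and CCR6 had 2 and 0 in RB-BC and 4 and 0 in DMSO. CXCR6, the CXCL16 receptor, had 21 and 13 counts in RB-BC and 36 and 4 in DMSO. The edgeR test called 0 of the 6, against 8.58% higher and 7.53% lower over all genes, and DESeq2 and limma-voom called 0. An unadjusted edgeR p under 0.05 was found for 0 of the 6 and for 4828 of all 13744 genes. All 6 had a mean under 50 counts. Of tested genes at that level 3.93% were called higher, so 0 calls say little. Those with the smallest adjusted p were ACKR4 (−1.02 ± 0.52, edgeR adjusted p = 0.215) and CCR7 (−0.80 ± 0.67, edgeR adjusted p = 0.427). The median log2 fold change of the list was −0.50, against −0.0016 for all genes tested, and it was 0.08 with DMSO 1 left out.

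A list of proteases that release or trim chemokines, the ADAM17 partners RHBDF1 and RHBDF2 and the protease inhibitor TIMP3 had 6 of 11 tested genes higher in RB-BC and 0 lower, against 8.58% higher and 7.53% lower over all genes. Its median log2 fold change was 0.84, against −0.0016 over all genes. The calls were 5 proteases and RHBDF1. ADAM17, a sheddase of CX3CL1 and many other membrane proteins, was at 109 ± 0.320 CPM in RB-BC and 60.9 ± 0.0430 CPM in DMSO (log2 fold change 0.84 ± 0.13, edgeR adjusted p = 0.0160). RHBDF1, which encodes the ADAM17 partner iRhom1, rose by 0.95 ± 0.16. The lysosomal proteases CTSS (edgeR adjusted p = 0.0195) and CTSB (0.82 ± 0.17) rose, as did the matrix metalloproteases MMP1 (1.49 ± 0.32) and MMP14 (0.67 ± 0.16). TIMP3 (−0.44 ± 0.15) did not pass (edgeR adjusted p = 0.0954). DESeq2 called 7 genes of the list higher and 1, TIMP3, lower. Over all 13744 genes DESeq2 called 1639 higher and 1583 lower. ADAM10, the constitutive sheddase of CX3CL1 and CXCL16, which was picked after its values were seen, had 92.9 ± 0.439 CPM in RB-BC and 122 ± 33.0 CPM in DMSO (−0.39 ± 0.21, edgeR adjusted p = 0.232). It passed without DMSO 2 (−0.65, edgeR adjusted p = 0.0189). All calls of the list were lost without RB-BC 1 and most without RB-BC 2, and more genes were called without DMSO 2. The count over all genes moved in the same directions.

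Genes of the NF-kB system showed 7 rises and 1 fall among 15, against 8.58% higher and 7.53% lower over all genes. The list's median was 0.54, against −0.0016 over all genes. The rises included NFKBIZ, an inducible IκB protein (3.23 ± 0.21), TNFAIP3, which encodes the ubiquitin-editing inhibitor A20 (2.87 ± 0.25), and NFKBIA (2.57 ± 0.16) and NFKBIE (1.69 ± 0.15), which encode IκB inhibitors. Genes of NF-kB subunits were also among the rises, so these were not confined to inhibitors. The gene that fell was MAP3K14, which encodes the NF-kB-inducing kinase NIK, at 18.8 ± 0.284 CPM in RB-BC and 56.0 ± 6.31 CPM in DMSO (−1.57 ± 0.16). Slightly fewer genes of the list were called with either RB-BC library left out, and more with DMSO 2 left out. The count over all genes moved in the same directions.

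The listed interferon ligands were at 0 except for IFNL1, the gene of interferon lambda 1. IFNL1 had 23 and 23 counts in RB-BC, against 0 and 0 in DMSO, and was at least 6.24-fold higher in RB-BC (edgeR adjusted p = 0.0209). It is another of the 15 tested genes with no count in DMSO, all of which were called. Its call did not hold with RB-BC 1 left out (edgeR adjusted p = 0.112) or with RB-BC 2 left out (edgeR adjusted p = 0.0772). IFNA1, IFNB1, IFNE, IFNG, IFNK, IFNL2 and IFNL3 had no count in any library. Of 21 tested genes for interferon ligands, receptors and signalling, 4 rose and 1 fell, against 8.58% higher and 7.53% lower over all genes. The list's median was 0.29, against −0.0016 over all genes. Besides IFNL1, the rises were IFNGR2, a chain of the interferon gamma receptor (1.42 ± 0.14), the kinase gene IKBKE (1.16 ± 0.18) and IRF2 (0.89 ± 0.14), and the fall was SOCS3, a cytokine signalling inhibitor (−1.31 ± 0.15). IRF1 (0.12 ± 0.14), named after its values were seen because it acts on the CXCL10 promoter, did not pass. Most calls of the list were lost with either RB-BC library left out, and more genes were called without DMSO 1. The count over all genes moved in the same directions. IRF2 and SOCS3 were not called with either RB-BC library left out, nor IKBKE without RB-BC 1.

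Among interferon gamma response genes, which include CXCL9, 7 of 13 tested rose and 0 fell, against 8.58% higher and 7.53% lower over all genes. The list's median was 1.16, against −0.0016 over all genes. ICAM1, an adhesion molecule that is also an NF-kB target, was at 478 ± 46.3 CPM in RB-BC and 43.3 ± 16.6 CPM in DMSO (3.46 ± 0.30, edgeR adjusted p = 0.00636). APOL1 rose by 2.05, and the guanylate-binding protein genes GBP4 and GBP2 rose by 1.69 and 1.48. Those named are only part of the 7 that rose. Tested genes that did not pass included GBP1 (−0.09 ± 0.13) and CIITA, the MHC class II transactivator (−0.57 ± 0.23, edgeR adjusted p = 0.138). Without RB-BC 1 fewer genes of the list were called, as over all genes, and GBP4 was not among them. For the IL-4 and IL-13 route to CCL26, edgeR called 0 of 7 tested genes, against 8.58% higher and 7.53% lower over all genes. With 7 genes, 0 calls is not far from those shares. DESeq2 and limma-voom also called 0. An unadjusted edgeR p under 0.05 was found for 2 of the 7 and for 4828 of all 13744 genes. The pair with the smallest adjusted p were JAK3 (3.26 ± 1.03, edgeR adjusted p = 0.0816) and IL2RG (1.91 ± 0.70, edgeR adjusted p = 0.113), both at under 40 counts per library. STAT6, named after its value was seen, was at 111 ± 11.1 CPM in RB-BC and 109 ± 13.3 CPM in DMSO (0.02 ± 0.16).

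**Figure D4:**
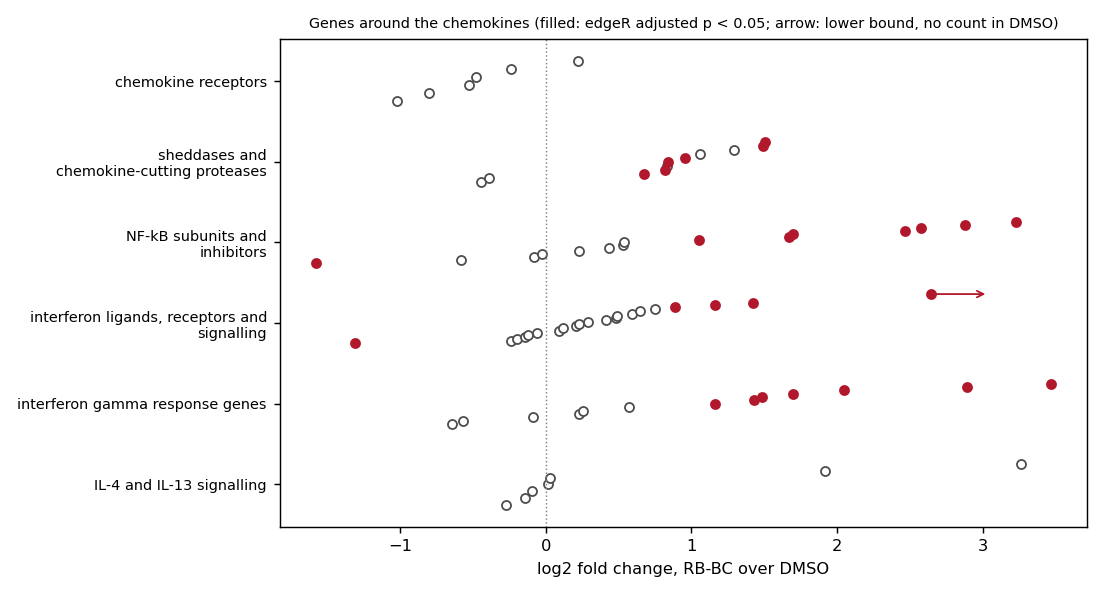
Log2 fold change of RB-BC over DMSO for the tested genes of 6 lists around the chemokines, 1 point per gene (filled, edgeR adjusted p under 0.05; arrow, lower bound for IFNL1, which had no count in DMSO). The NF-kB and interferon gamma response lists reached 3.23 and 3.46, and the IL-4 and IL-13 list reached 3.26 with JAK3, which was not called. The receptor list and the IL-4 and IL-13 list, with 6 and 7 tested genes, held no called gene. Over all genes 8.58% were called higher and 7.53% lower.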

How the data were processed

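RNA of 4 MDA-MB-231 libraries was sequenced by the authors, and they deposited whole-number read counts per Ensembl gene, 1 column per library, with no normalization that the values show. No source used here gives the aligner, counter, strand setting or annotation. The builds listed per the submitters' processing notes are those of mouse, whereas the gene identifiers in the table are human, so gene positions in the files' build are not given. Groups and replicate numbers came from the sample titles.

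The counts were tested with edgeR 4.0.16 in R 4.3.3 (filterByExpr, minimum count 10 and minimum total 15, TMM scaling, quasi-likelihood test, two-sided, Benjamini-Hochberg threshold 0.05), after a check on simulated data. Totals from 34774542 to 42786422 counts set the precision, and bounds and floors (3 counts) cover counting error only, since no molecular identifiers are mentioned and PCR copies may be counted. Alternatives were RLE scaling, library totals alone, DESeq2 1.42.0, no filter, a filter at a mean of 50 counts, a replicate block, limma-voom (limma 3.58.1), mitochondrial genes removed and each library left out. Members and gene lists were chosen with earlier results of these data known. Named genes were the 8 members, the 4 lowest adjusted p-values in each list (2 in lists with no call), all called genes of lists with 5 or fewer calls, and the 5 nearest profiles. Other genes named were chosen after their values were seen. Exon lengths are from GENCODE 29. A few genes on the lists are not reported here.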

Additional observations from a re-analysis of the deposited data

How the results depend on the processing

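The count of members called was 3, and it was 1 with a mean of at least 50 counts, which leaves 3 members tested, and between 1 and 5 with each library left out. Leaving out RB-BC 1 left 1 call and leaving out DMSO 2 gave 5. The count over all genes was 2214 (1179 higher, 1035 lower), 1205 with library totals alone (790 higher, 415 lower) and between 205 (RB-BC 1 left out) and 3648 (DMSO 2 left out). Such a fit with 1 library in a group assumes that the lone library varies like the other pair. Log2 values with each library left out ran from 0.93 to 3.61 for CCL5, 1.48 to 3.61 for CXCL11 and 4.45 to 5.92 for CX3CL1, and the log2 lower bound of CXCL10 from 2.77 to 3.61. CXCL16 changed sign with library totals alone (0.058), limma-voom (0.10), the replicate block (0.071) and DMSO 2 left out, and ranged from −0.54 to 0.71 over the left-out libraries. Other uncalled genes that changed sign were CCL28 (−0.34 to 0.77 over the left-out libraries), CCR7 (−1.33 to 0.079) and STAT6 (−0.10 to 0.15). CCL20 kept its call in all 11 alternatives that tested it, and CCL26 stayed uncalled in its 11. CCL20 had no count in DMSO, and all 15 tested genes of that kind were called in the main fit. The causes were not tested. Deviations of same-numbered libraries had a correlation of −0.03 across tested genes, so the numbers are not shown to pair the libraries. With the replicate block 2114 genes and 3 members were called, and MMP14 was not (edgeR adjusted p = 0.0551). Depth also limits the members, several of which rest on fewer than 100 counts per library.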

Other observations

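Outside the members and the neutrophil-attracting list, most chemokine genes held few or no counts. Of 27 further chemokines, 20 had no count in any library. CCL17 and CCL22, which flank CX3CL1 in the RefSeq annotation, had 4 and 2 and 6 and 2 counts in RB-BC, against 0 in both DMSO libraries, too few to pass the filter. CCL24, beside CCL26, had 4 and 6 counts in RB-BC and 7 and 18 in DMSO. CXCL5, a neutrophil attractant, had 10 and 2 counts in RB-BC and 0 in DMSO. CCL28, a mucosal CC chemokine, was the only tested gene of the 27, at 16.6 ± 3.62 CPM in RB-BC and 15.3 ± 7.98 CPM in DMSO (log2 fold change 0.11 ± 0.37, edgeR adjusted p = 0.852). It had 365 counts in DMSO 1 and 703 in DMSO 2, so its DMSO libraries were also far apart.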
